A study of Mus musculus with 35 samples.

Results

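Cardiac muscle genes were followed array by array in mouse lung after styrene inhalation. The rule named 8 gene symbols (Myh6, Actc1, Tnnt2, Tnni3, Myl7, Sln, Nppa and Myl4) and took the brightest probe set listed for each in the platform annotation. The annotation listed a probe set for 6 of them, out of 17097 genes measured, and Myh6 and Sln were not analysed here. The samples were whole lungs of adult male wild-type C57Bl/6 mice, each exposed once for 6 h to styrene, a volatile aromatic hydrocarbon, or to air alone. There were 7 dose groups of 5 arrays (35 in all): air at 0 ppm and styrene at 1, 5, 10, 20, 40 and 120 ppm, with lungs taken the next morning. The values are log2 signals of an expression array, so each difference of 1 is a 2-fold change. The question was whether these genes follow dose or the variation that arrays of 1 dose share.

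In mice, sheaths of heart muscle cells extend from the left atrium along the pulmonary veins into the lung, so lung RNA carries cardiac transcripts. These cells are built like atrial muscle: actin and myosin filaments slide past each other, troponin and tropomyosin make that sliding answer to calcium, and light chains tune the myosin motor. Atrial muscle also stores and secretes atrial natriuretic peptide, a hormone that lowers blood volume.

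The 6 measured genes cover these roles. Actc1 encodes cardiac alpha-actin of the thin filament. Tnnt2 and Tnni3 encode cardiac troponin T, which ties the troponin complex to tropomyosin, and cardiac troponin I, its inhibitory subunit. Myl7 and Myl4 encode the regulatory and the essential myosin light chain of the atrium. Nppa encodes the precursor of atrial natriuretic peptide. By the RefSeq annotation of GRCm38.p6, Actc1 lies on chromosome 2, Tnnt2 on chromosome 1, Tnni3 on chromosome 7, Nppa on chromosome 4, and Myl7 and Myl4 lie apart on chromosome 11. A whole-lung array does not show in which vessel a transcript lay.

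The 250 bases upstream of the annotated start are shown for the 4 measured members that held a motif match there. They are RefSeq sequences of build GRCm38.p6, read 5′ to 3′ on the strand of the gene, in lower case with motif matches in capitals: Actc1 at chr2:114052876-114053125 on the minus strand, Myl7 at chr11:5898783-5899032 on the minus strand, Nppa at chr4:148000472-148000721 on the plus strand, and Tnnt2 at chr1:135836084-135836333 on the plus strand (the first of 2 entries).
Actc1: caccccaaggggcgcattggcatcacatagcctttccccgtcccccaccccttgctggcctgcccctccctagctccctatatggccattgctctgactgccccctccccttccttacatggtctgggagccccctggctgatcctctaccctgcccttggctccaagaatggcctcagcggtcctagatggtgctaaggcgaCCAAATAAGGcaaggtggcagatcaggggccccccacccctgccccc
Myl7: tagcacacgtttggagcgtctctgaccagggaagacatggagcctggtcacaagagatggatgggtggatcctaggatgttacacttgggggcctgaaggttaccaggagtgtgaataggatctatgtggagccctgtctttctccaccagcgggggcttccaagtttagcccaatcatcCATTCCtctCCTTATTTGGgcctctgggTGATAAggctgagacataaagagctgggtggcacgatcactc
Nppa: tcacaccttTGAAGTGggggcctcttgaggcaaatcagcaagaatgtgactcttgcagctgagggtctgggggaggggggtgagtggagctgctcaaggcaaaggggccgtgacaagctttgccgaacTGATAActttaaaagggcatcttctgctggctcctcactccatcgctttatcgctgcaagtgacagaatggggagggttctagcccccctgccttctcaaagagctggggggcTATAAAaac
Tnnt2: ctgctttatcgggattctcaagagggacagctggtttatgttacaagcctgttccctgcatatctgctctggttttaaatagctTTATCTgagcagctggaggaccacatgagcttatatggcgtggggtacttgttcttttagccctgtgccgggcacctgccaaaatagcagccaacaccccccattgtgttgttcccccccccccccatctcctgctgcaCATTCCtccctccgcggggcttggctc
The motifs searched, on both strands, were TATAAA, the GATA factor motif as AGATAA or TGATAA, the NK-2 homeobox motif TNAAGTG, the M-CAT motif CATTCC, and, by name, the CArG box bound by serum response factor and the MEF2 site. A CArG box was found upstream of Actc1 and Myl7, 2 of the 7 members with an entry. It was found in 1.62% of the 27025 genes of the promoter table, counting a match in any entry of a gene. GATA matches lay upstream of Myl7, Nppa and Tnnt2 (18.8% of genes), and M-CAT matches upstream of Myl7, Tnnt2 and Myh6 (14.4%). Nppa alone of the 7 held the NK-2 motif (11.4%) and TATAAA (14.3%), and none of the 7 held a MEF2 site (3.42%). No match to any motif searched lay upstream of Tnni3 or Myl4, whose sequences are not shown. The matches describe letters in a window and no binding was measured.

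Transcripts of atrial muscle genes were detected in the labelled tissue, while the marker lists gave mixed values. Actc1, Myl7 and Myl4 exceeded the array's own highest nonspecific-hybridisation control on 35 of 35 arrays, Tnnt2 on 32, Tnni3 on 28 and Nppa on 11. Myl2, the ventricular regulatory light chain, was above that control on 0 of 35 arrays, and Myl3, a ventricular essential light chain, on 1. Myh7, the slow cardiac and skeletal myosin, was above it on 27 arrays, and Lbh, also on the list of ventricular markers, on 35. Of that list of 6, 3 were above it on no array. Of 14 measured genes of an atrial hormone and channel list, 10 were above it on no array. Of 16 skeletal muscle markers measured, 14 were above it on no array. In bulk lung RNA, fewer cells of a type and less RNA per cell cannot be told apart.

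The 120 ppm arrays stood apart from the rest in technical measures. Their poly-A spike-in level ran from 7.93 to 8.81 on the log2 scale, against 6.58 to 6.87 at 0 ppm, and their highest nonspecific control from 6.71 to 7.36, against 5.90 to 6.34. Array medians ran from 5.36 to 5.80 at 120 ppm and from 5.91 to 5.95 at 0 ppm. The part of these shifts in results at 120 ppm was not tested, and results are therefore also given for 0 to 40 ppm. Animal number 15 stands in 2 titles, those of 1 ppm replicate 5 and 5 ppm replicate 1, and it is not known whether these were 2 mice.

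The cardiac actin gene varied widely between mice of the same dose. Actc1 read 9.37, 9.97, 9.77, 9.04 and 8.84 at 0 ppm, 10.40, 8.72, 10.79, 9.98 and 11.49 at 1 ppm, and 9.69, 9.37, 8.43, 10.33 and 9.57 at 5 ppm (replicates 1 to 5). It read 9.45, 9.99, 10.18, 10.32 and 10.72 at 10 ppm, 9.84, 10.14, 9.48, 10.11 and 9.57 at 20 ppm, and 9.66, 10.04, 9.63, 10.01 and 9.26 at 40 ppm. At 120 ppm it read 9.34, 9.41, 9.73, 9.15 and 9.39. Each styrene group overlapped the 0 ppm group, the highest array was 1 ppm replicate 5 and the lowest was 5 ppm replicate 3, an 8.33-fold range. The 5 arrays at 1 ppm alone spanned 2.77 on the log2 scale.

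The troponin genes also varied widely between mice of the same dose. Tnnt2 read 7.26, 8.54, 8.12, 7.38 and 7.31 at 0 ppm, 9.0, 6.24, 9.11, 7.75 and 10.64 at 1 ppm, and 7.76, 7.00, 6.14, 8.35 and 7.74 at 5 ppm. It read 5.88, 7.56, 8.12, 8.0 and 9.27 at 10 ppm, 7.56, 8.35, 6.89, 8.77 and 7.09 at 20 ppm, and 7.78, 8.24, 6.93, 7.51 and 6.73 at 40 ppm. At 120 ppm it read 5.16, 5.89, 7.52, 5.69 and 6.87. At that dose 4 of the 5 arrays lay below all 5 arrays at 0 ppm, and replicate 3 lay inside the 0 ppm range. The highest array was again 1 ppm replicate 5. The lowest, 120 ppm replicate 1, lay under its nonspecific control, and with such values set to that control the range was at least 27.1-fold.

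Tnni3 read 7.28, 8.39, 8.18, 7.25 and 6.95 at 0 ppm, 8.71, 5.68, 9.26, 7.71 and 10.39 at 1 ppm, and 7.33, 7.05, 5.68, 8.28 and 7.41 at 5 ppm. It read 4.79, 6.80, 7.80, 7.81 and 8.66 at 10 ppm, 6.97, 7.88, 6.09, 7.81 and 6.54 at 20 ppm, and 7.28, 7.43, 6.71, 7.27 and 6.13 at 40 ppm. At 120 ppm it read 6.08, 6.36, 8.55, 7.48 and 7.08. Each group overlapped the 0 ppm group, and the array that was lowest for Tnni3, 10 ppm replicate 1, was also the lowest for Myl7 and Myl4. That array lay under its nonspecific control for Tnni3. With every such value set to the control of its own array, the range over all arrays up to 1 ppm replicate 5 was at least 24.8-fold.

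The atrial light chains followed the same arrays. Myl7 read 9.21, 10.43, 10.28, 9.56 and 9.28 at 0 ppm, 10.73, 8.0, 11.35, 9.95 and 11.98 at 1 ppm, and 9.92, 9.29, 8.21, 10.49 and 9.95 at 5 ppm. It read 7.43, 9.0, 10.06, 9.98 and 10.65 at 10 ppm, 9.35, 10.03, 8.67, 10.00 and 8.93 at 20 ppm, and 9.68, 9.70, 9.04, 9.28 and 8.64 at 40 ppm. At 120 ppm it read 8.25, 8.12, 9.82, 8.43 and 8.69. As with Tnnt2, 120 ppm replicate 3 stood above the other arrays of its dose and inside the 0 ppm range, while the other 4 lay below all 5 arrays at 0 ppm.

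Myl4 read 8.16, 9.27, 9.23, 8.28 and 8.23 at 0 ppm, 9.60, 6.73, 10.02, 8.60 and 11.12 at 1 ppm, and 8.45, 8.30, 6.92, 8.99 and 8.53 at 5 ppm. It read 6.47, 7.93, 8.86, 8.75 and 9.76 at 10 ppm, 8.06, 8.89, 7.55, 8.93 and 7.65 at 20 ppm, and 8.38, 8.47, 8.0, 8.39 and 7.36 at 40 ppm. At 120 ppm it read 7.92, 8.38, 9.92, 8.82 and 8.52, on both sides of the 0 ppm arrays. The range over all arrays was 25.1-fold for Myl4 and 23.5-fold for Myl7.

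Nppa, the hormone gene, ranged at least 82.7-fold and lay below the nonspecific control on 24 of 35 arrays. It read 3.97, 6.91, 5.79, 4.05 and 4.01 at 0 ppm, 8.21, 3.59, 8.06, 5.87 and 11.95 at 1 ppm, and 3.85, 5.53, 3.86, 7.85 and 5.14 at 5 ppm. It read 3.80, 5.22, 6.12, 6.53 and 7.99 at 10 ppm, 4.22, 6.21, 4.25, 6.78 and 3.86 at 20 ppm, and 3.85, 6.28, 5.42, 4.75 and 4.30 at 40 ppm. At 120 ppm it read 4.60, 5.48, 7.59, 4.45 and 3.86. The 3 arrays at 1 ppm that were high for the muscle protein genes, replicates 1, 3 and 5, were also high for Nppa, and replicate 2 of that dose held its lowest value.

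**Figure D1:**
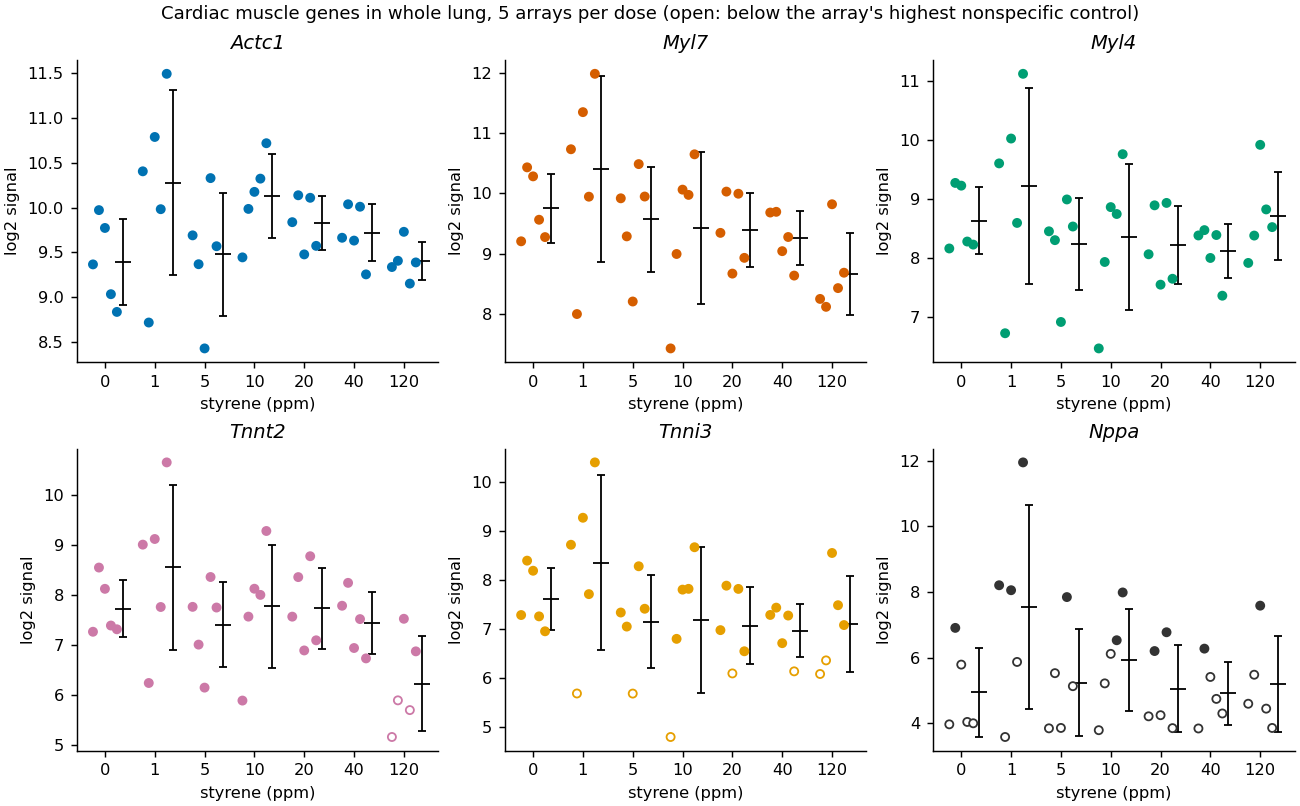
Log2 signal of the 6 measured genes (1 panel each) against styrene dose in ppm, 1 point per array in replicate order, open where the signal lay below the array's highest nonspecific control, with the group mean and SD (n = 5) beside the points. The 1 ppm groups are the most spread out in every panel, and the 120 ppm groups of Tnnt2 and Myl7 have 4 of 5 arrays below all 0 ppm arrays.

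These genes varied more between arrays of 1 dose than nearly all others. The SD within dose groups was 0.563 for Actc1, 0.933 for Myl7, 0.958 for Myl4, 1.02 for Tnnt2, 1.10 for Tnni3 and 1.75 for Nppa, on the log2 scale, against a median of 0.198 over all 17097 genes. Actc1, the least variable member, still lay above 98.9% of genes. Dose group means accounted for 29.6% of the total variance of Actc1, 25.4% of Myl7, 14.7% of Myl4, 33.4% of Tnnt2, 17.4% of Tnni3 and 23.7% of Nppa. Such shares hold a part that arises by chance, because means of small groups differ without any effect of dose. That part was not subtracted, so a share alone is not read as an effect of dose. These shares turned on single arrays: without 1 ppm replicate 2 they were 49.2%, 43.5%, 33.2%, 46.6%, 34.4% and 38.9% in the same order, and without 1 ppm replicate 5 those of Myl4, Tnni3 and Nppa were 8.2%, 8.9% and 12.5%. The median gene had 60.3% of its variance between doses. Without the 120 ppm group that median was 29.2%, and the shares of the members ran from 14.5% for Tnnt2 to 25.9% for Actc1.

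Within a dose group the members mostly moved together. After each value was centred on the mean of its dose group, all 6 genes lay above their group means on 13 arrays and all 6 lay below on 12, out of 35. The first principal component of the centred and scaled values held 93.3% of their variance. Over the 15 pairs of genes Pearson's r ran from 0.842 (Myl7 with Nppa) to 0.989 (Myl4 with Tnni3), with a median of 0.918. Once the mean of the other 5 members was taken into account, the SD within dose groups fell to 0.208 for Actc1, 0.223 for Myl7, 0.173 for Myl4, 0.290 for Tnnt2 and 0.254 for Tnni3. That left between 3.25% (Myl4) and 13.7% (Actc1) of the within-group variance of these 5 genes, and 23.4% of that of Nppa.

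With Actc1 as the anchor, r was 0.918 for Myl7, 0.920 for Myl4, 0.901 for Tnnt2, 0.907 for Tnni3 and 0.872 for Nppa over 35 arrays. Spearman's rho for these 5 relations ran from 0.810 (Nppa) to 0.914 (Myl4). Each had a permutation p of 1e-05, adjusted over the 5 relations to the same value, which is the smallest that 100000 two-sided permutations within dose groups can give. Actc1 and its partner lay on the same side of their group means on 29 (Nppa) to 31 arrays. The arrays farthest from the median of Actc1 were 1 ppm replicates 2 and 5, and without them r was 0.876, 0.867, 0.849, 0.859 and 0.791 in the same order of genes. Correlations over arrays rest on values that share the RNA, the hybridisation and the normalisation of each array. Of the array measures, neither the array median (r = 0.13, adjusted p = 0.498), the highest nonspecific control (r = -0.20, adjusted p = 0.498) nor the poly-A spike-in (r = 0.01, adjusted p = 0.973) was found to follow Actc1 in permutation tests over 3 relations. Without 1 ppm replicates 2 and 5 these values of r were 0.15, -0.41 and 0.20 and were not tested.

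**Figure D2:**
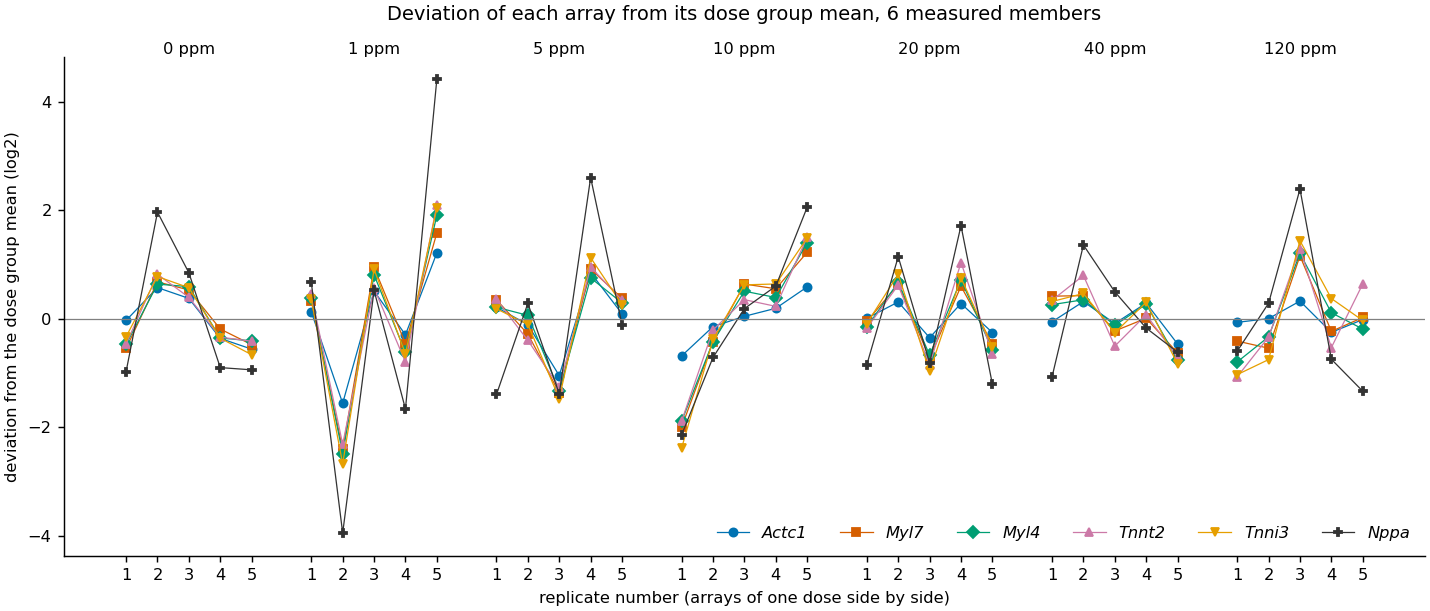
Deviation of each array from its dose group mean on the log2 scale, for the 35 arrays in order of dose and replicate number, with 1 line and marker per gene. The 6 lines rise and fall together within each dose group, and 1 ppm replicates 2 and 5 and 10 ppm replicate 1 deviate in 1 direction for all 6, with Actc1 moving the least.

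Against that spread, no cardiac member passed the test at any dose from 1 to 40 ppm. The test was limma's moderated test with 1 mean per dose group over all arrays, two-sided, with Benjamini-Hochberg adjustment over 17097 genes and a threshold of 0.05. At 1 ppm 0 of 6 members passed, against 0% of all genes. All 6 were higher at 1 ppm than at 0 ppm as measured, with a median log2 difference of 0.78 against -0.01 for all genes. Actc1 averaged 10.28 ± 1.03 at 1 ppm and 9.40 ± 0.48 at 0 ppm (SD, n = 5 each), a difference of 0.88 (SE 0.33, adjusted p = 0.612). Nppa averaged 7.54 ± 3.10 at 1 ppm and 4.95 ± 1.34 at 0 ppm, a difference of 2.59 (SE 1.02, adjusted p = 0.639). These 2 genes had an unadjusted p under 0.05, as did 1190 of all genes.

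At 5 ppm 0 of 6 passed, against 1.16% of all genes, and the median difference of the members was -0.25. At 10 ppm 0 of 6 passed, against 11.8%, and the median difference was -0.12. Actc1 averaged 10.13 ± 0.47 at 10 ppm and 9.40 ± 0.48 at 0 ppm (SD, n = 5 each), a difference of 0.73 (SE 0.33, adjusted p = 0.178), and was the only member with an unadjusted p under 0.05 there. At 20 ppm 0 of 6 passed, against 13.2%, and at 40 ppm 0 of 6, against 12.7%. The median differences at these doses were -0.17 and -0.38, and no member had an unadjusted p under 0.05 at 5, 20 or 40 ppm. Standard errors ran from 0.33 for Actc1 to 1.02 for Nppa.

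At 120 ppm 1 of 6 members passed, Tnnt2, where 74.8% of all genes passed. Tnnt2 averaged 6.22 ± 0.95 at 120 ppm and 7.72 ± 0.58 at 0 ppm (SD, n = 5 each), a difference of -1.50 (SE 0.60, limma adjusted p = 0.0245). At 120 ppm 2 of 5 arrays lay above their highest nonspecific control, against 5 of 5 at 0 ppm, and with the other 3 set to that control the signal was at least 1.41-fold lower. Myl7 averaged 8.66 ± 0.68 at 120 ppm and 9.75 ± 0.57 at 0 ppm, a difference of -1.09 (SE 0.55, adjusted p = 0.0714). Actc1 averaged 9.40 ± 0.21 at 120 ppm and 9.40 ± 0.48 at 0 ppm, and Myl4 8.71 ± 0.75 at 120 ppm and 8.63 ± 0.56 at 0 ppm. The differences of Tnni3, -0.50 (SE 0.65), and Nppa, 0.25 (SE 1.02), were smaller than their standard errors. The median difference of the 6 members was -0.25, against 0.15 for all genes.

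The Tnnt2 call at 120 ppm was not stable. The difference was -1.23 without 120 ppm replicate 1 (adjusted p = 0.0779), -1.36 without 120 ppm replicate 4 (0.0546), -1.29 without 0 ppm replicate 2 (0.0662) and -1.40 without 0 ppm replicate 3 (0.0503). Myl7 moved the other way across the threshold: it passed without 120 ppm replicate 3 (-1.38, adjusted p = 0.0308), without 1 ppm replicate 2 (-1.09, 0.0356) and without 10 ppm replicate 1 (-1.09, 0.0481). A second probe set listed for Tnnt2, which correlated with the first at r = 0.99 within dose groups, averaged 6.72 ± 0.66 at 120 ppm and 7.59 ± 0.50 at 0 ppm (SD, n = 5 each), a difference of -0.86 (SE 0.55, limma adjusted p = 0.161). The 2 probe sets of the gene thus fell on different sides of the threshold. A second probe set of Myl4 lay below the nonspecific control on every array.

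Over all doses, the moderated F test passed for 1 of 6 members, Tnnt2 (adjusted p = 0.0401), against 76.3% of all genes. That count turned on single arrays: it was 6 without 1 ppm replicate 2. It was 2 when either replicate 4 of 5 ppm or replicate 1 of 10 ppm was left out. Leaving out replicate 1, 3 or 5 of 1 ppm, or replicate 1, 2 or 4 of 120 ppm, gave 0. The slope on log2(dose + 1 ppm) from 0 to 120 ppm passed for 2 of 6, against 63.6%: Tnnt2 with a log2 change of -0.21 (SE 0.07, adjusted p = 0.0130) and Myl7 with -0.19 (SE 0.06, adjusted p = 0.0124) per unit. From 0 to 40 ppm the slope passed for 0 of 6 members, against 26% of all genes, and none had an unadjusted p under 0.05 with limma. Over that range the slopes ran from -0.20 (Tnni3, SE 0.10) to 0.02 (Actc1, SE 0.06). The slope to 40 ppm was -0.15 for Myl7 (SE 0.09, adjusted p = 0.208) and -0.10 for Tnnt2 (SE 0.09, adjusted p = 0.481).

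**Figure D3:**
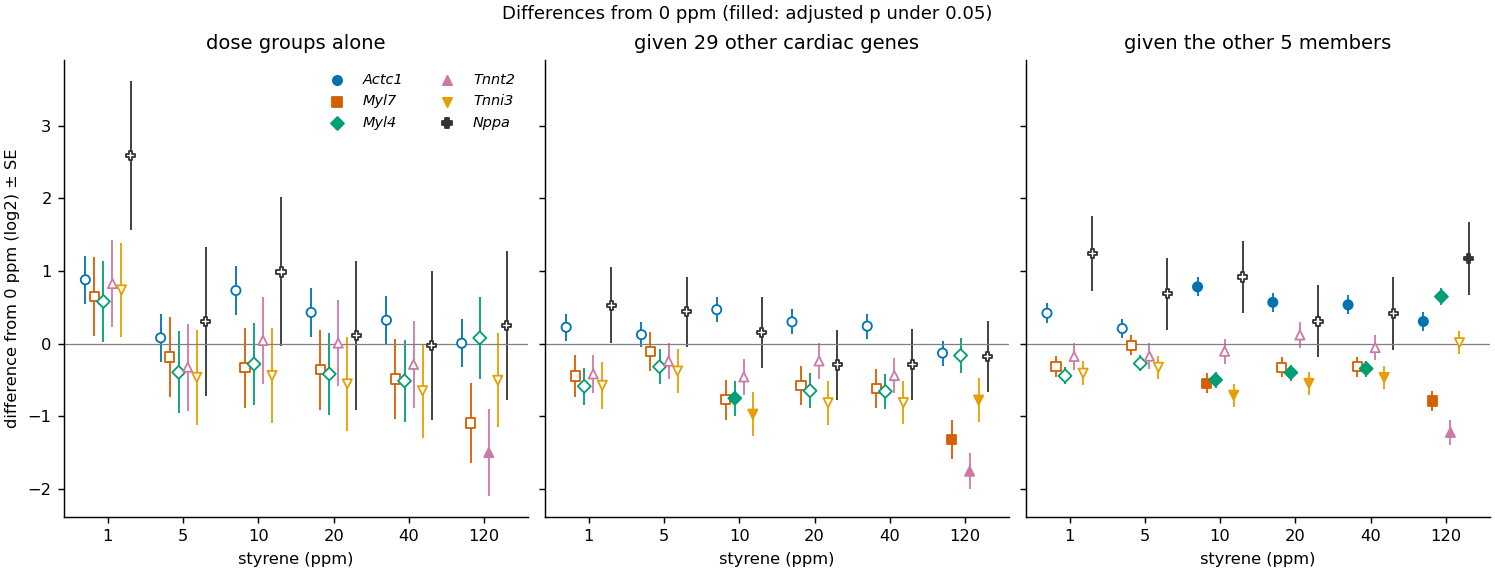
Log2 difference from 0 ppm (y axis, ± SE) for each dose in ppm (x axis) and gene, from 3 fits: dose groups alone, with 29 other cardiac genes as a covariate, and with the mean of the other 5 members as a covariate. Filled markers passed an adjusted p of 0.05. In the first fit Tnnt2 at 120 ppm is the only filled marker; the standard errors shrink in the other fits.

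To set dose apart from what the arrays shared, the fit was repeated with a covariate: the mean of 29 other cardiac genes of the sarcomere and of calcium handling, each scaled to an SD of 1. Within dose groups this mean correlated with the members at r = 0.87 to 0.92. The covariate itself averaged 0.09 ± 0.53 at 10 ppm and -0.18 ± 0.22 at 0 ppm (SD, n = 5 each, in scaled units), and 3 of its genes, Tpm1, Jph2 and Cacna1c, were called higher at 10 ppm, so a member's difference here is relative to a mean that holds genes called higher. Standard errors shrank, for Tnni3 at 10 ppm to 0.30. Given the covariate, 2 of 6 members passed at 10 ppm, both lower, against 11.2% of all genes: Tnni3 by a log2 difference of -0.97 (adjusted p = 0.0334), where it was -0.44 without the covariate, and Myl4 by -0.75 (SE 0.24, adjusted p = 0.0389). At 20 and 40 ppm 0 of 6 passed (12.9% and 12.5% of all genes), with Tnni3 at -0.81 for both doses (adjusted p = 0.0737 and 0.0767). Tnni3 was above the nonspecific control on 4 of 5 arrays at each of 10, 20 and 40 ppm, so its sizes there are not settled. At 1 and 5 ppm 0 of 6 passed, against 0.00585% and 1.29% of all genes.

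At 120 ppm, given that covariate, 3 of 6 members passed, all lower, against 74.8% of all genes. Tnnt2 was lower by a log2 difference of -1.75 (SE 0.25, adjusted p = 1.51e-07), Myl7 by -1.32 (SE 0.27, adjusted p = 6.21e-05) and Tnni3 by -0.78 (SE 0.30, adjusted p = 0.0214). At 120 ppm 3 of 5 Tnnt2 arrays lay under the nonspecific control, and Tnni3 was above it on 3 of 5 arrays. The sizes for Tnnt2 and Tnni3 are therefore not settled. Actc1 at -0.13, Myl4 at -0.16 and Nppa at -0.17 did not pass. The F test passed for 4 of 6, against 76.4%. Of the slopes, 3 of 6 passed from 0 to 120 ppm (63.2% of all genes) and 2 of 6 from 0 to 40 ppm (26.1%), namely Tnni3 at -0.15 (SE 0.05, adjusted p = 0.0195) and Myl4 at -0.11 (SE 0.04, adjusted p = 0.0413). Some of the covariate's own genes were also called at 120 ppm, where 74.8% of all genes were. Of its 19 sarcomere genes 6 were higher and 4 lower, and of its 10 calcium handling genes 2 were higher and 3 lower. For the slope to 40 ppm 2 of the sarcomere genes were called higher and 1 lower, against 26% of all genes. The members' differences and slopes here are relative to a mean that holds these genes. A covariate of dim genes can itself move with the array measures at 120 ppm, and its part there was not tested.

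Held against each other, some members parted. With the mean of the other 5 members as the covariate, an alternative added after the data were seen, the fit asks how each gene stood relative to the rest, so some must lie above and some below. Actc1 stood higher by log2 differences of 0.78, 0.57, 0.53 and 0.31 at the doses of 10, 20, 40 and 120 ppm (SE 0.13 each, adjusted p = 5e-05, 0.00241, 0.00454 and 0.0364). Tnni3 stood lower by -0.71, -0.55 and -0.46 at 10, 20 and 40 ppm (adjusted p = 0.00165, 0.0148 and 0.0427). It was above the nonspecific control on 4 of 5 arrays at each of these doses, so these sizes are not settled. Myl4 stood lower by -0.50, -0.40 and -0.34 at the same doses (adjusted p = 0.00196, 0.0124 and 0.0353), and Myl7 by -0.54 at 10 ppm (adjusted p = 0.00671).

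In these fits 4 of 6 members passed at 10 ppm, where 11.9% to 12.1% of all genes did. At 20 and 40 ppm 3 of 6 passed, against 13.1% to 13.3% and 13.1% to 13.2%. At 120 ppm 5 of 6 passed, against 74.9% to 75%: Tnnt2 stood lower by -1.22 (SE 0.18) and Myl7 by -0.79 (SE 0.14), while Myl4 stood higher by 0.65 (SE 0.11) and Actc1 by 0.31. Tnnt2 was above the nonspecific control on 2 of 5 arrays at 120 ppm, so its size is not settled. Nppa also passed as higher, but it was above the nonspecific control on 1 of 5 arrays at 120 ppm and 1 of 5 at 0 ppm, so no size is given. At 1 and 5 ppm 0 of 6 passed, against 0% and 1.38% to 1.42%. Tnnt2 did not pass at 10, 20 or 40 ppm (-0.10, 0.12 and -0.05), nor Myl7 at 20 or 40 ppm (-0.33 and -0.32), nor Tnni3 at 120 ppm (0.01). The calls are of unequal differences between members as measured, and do not tell which gene moved. Some members in the covariate lay under the nonspecific control on part of the arrays, and the part of this in the calls was not tested. The fits with a covariate were not repeated without single arrays.

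Smooth muscle markers followed Actc1 between arrays of 1 dose, and several of them rose at 10 to 40 ppm. The mean of 9 smooth muscle markers correlated with Actc1 within dose groups at r = 0.90 (Spearman's rho = 0.86, adjusted permutation p = 4.5e-05 over 9 marker lists), and at r = 0.85 without 1 ppm replicates 2 and 5. From 0 to 120 ppm in order of dose, its 7 group means were 6.46 ± 0.18, 7.04 ± 0.42, 6.79 ± 0.33, 7.20 ± 0.22, 6.90 ± 0.21, 7.01 ± 0.22 and 7.05 ± 0.15 (SD, n = 5 each). Of the 9 markers, 5 rose at 10 ppm and 0 fell, 2 rose and 1 fell at 20 ppm, and 4 rose and 0 fell at 40 ppm; of all genes 11.8%, 13.2% and 12.7% were called at these doses. At 120 ppm 4 rose and 2 fell, against 74.8% of all genes. Myocd, a coactivator of smooth and heart muscle genes, was above the nonspecific control on 0 of 35 arrays. Acta2, the vascular smooth muscle actin, rose by a log2 difference of 1.00 at 10 ppm (limma adjusted p = 7.03e-06), 0.80 at 20 ppm and 0.96 at 40 ppm. Cnn1, the calponin of smooth muscle, rose by 1.33 at 10 ppm (adjusted p = 0.00786) and Des, the muscle intermediate filament desmin, by 0.79 (adjusted p = 0.00245). The part of smooth muscle RNA in the Actc1 values was not tested.

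Other tissues that can come with a lung gave mixed values against Actc1 within dose groups. The ventricular list correlated at r = 0.80 (adjusted p = 4.5e-05) while 3 of its 6 markers were above the nonspecific control on no array. Adipose markers followed at r = 0.70 (adjusted p = 0.00236), cartilage and trachea markers at 0.63 (adjusted p = 0.00012) and skeletal muscle markers at 0.48 (adjusted p = 0.0065). Without 1 ppm replicates 2 and 5 these 4 values were 0.62, 0.52, 0.55 and 0.43. Of the ventricular list 1 gene, Myh7, had an r over 0.8 with the mean of the members (0.91), where the median of the list was 0.20. Of the 9 cartilage and trachea markers 8 were above the control on no array, and 1, the cartilage matrix gene Chad, had an r over 0.5 with the mean of the members (0.69), where the median of the list was 0.08. Mesothelium, thymus, hepatocyte and blood markers, at r = -0.09, -0.16, -0.27 and -0.29, did not pass.

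Other cardiac genes were also tested at each dose. Of 64 listed in 4 lists, 57 were measured, and 0 passed at 1 and 5 ppm, 4 rose at 10 ppm, and 3 rose and 1 fell at both 20 and 40 ppm, where 11.8%, 13.2% and 12.7% of all genes passed at 10, 20 and 40 ppm. At 120 ppm 17 rose and 10 fell, a share of calls that reads against 74.8% of all genes. Their median differences, from 1 to 120 ppm in order of dose, were 0.28, -0.05, 0.02, 0.0042, -0.04 and 0.14. The lists held genes of broad use as well as heart muscle genes, as the examples show.

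Among 19 measured sarcomere genes 1 rose at 10 ppm and 2 rose at 20 and at 40 ppm. Of all genes 11.8%, 13.2% and 12.7% passed at these doses. Tpm1, a tropomyosin also made in smooth muscle and fibroblasts, rose by a log2 difference of 0.30, 0.34 and 0.39 at 10, 20 and 40 ppm (limma adjusted p = 0.0334, 0.0110 and 0.00439) and fell by 0.54 at 120 ppm. Its r with the mean of the members within dose groups was 0.11. Myom1, a protein of the sarcomere's M-line, rose by 1.14 and 1.34 at 20 and 40 ppm (adjusted p = 1.25e-05 and 1.11e-06). Tnnc1, the calcium-binding troponin C of heart and slow muscle, had an r of 0.97 with the members and differed by -0.37 (SE 0.45, adjusted p = 0.457) at 120 ppm. Cryab, a small heat shock protein, was above the control on every array and fell by 0.73 at 120 ppm (adjusted p = 1.17e-07). Csrp3 and Myh7 were lower at 120 ppm but lay under the nonspecific control on all 5 of its arrays, so no size is given. From 0 to 40 ppm the slope of Csrp3 passed at -0.24 (SE 0.09, limma adjusted p = 0.0488), where 26% of all genes passed. That of Myh7 did not (-0.16, SE 0.08, adjusted p = 0.161). Csrp3 was above the control on 16 of 35 arrays and Myh7 on 27.

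Of 10 calcium handling genes 2 passed at 10 ppm, Jph2 and Cacna1c, against 11.8% of all genes. Their signal at 10 ppm exceeded the nonspecific control on 1 and 2 of 5 arrays. Atp2a2, the calcium pump of the sarcoplasmic reticulum, differed by 0.61 (SE 0.27, adjusted p = 0.155) at 10 ppm and fell by 1.35 at 120 ppm (adjusted p = 4.16e-05). Its r with the mean of the members was 0.77. Of 14 genes of the atrial hormone and channel list, 10 were above the control on no array, among them Nppb, Nkx2-5 and Gata4. Ankrd1, a muscle ankyrin repeat protein that other cells also make, rose at least 2.21-fold, 3.18-fold and 2.17-fold at 10, 20 and 40 ppm (adjusted p = 0.00913, 0.000193 and 0.0103). At 120 ppm Ankrd1 was lower (adjusted p = 0.0105) but lay under the nonspecific control on all 5 arrays, so no size is given. Dkk3, a secreted Wnt modulator, fell by 0.44 and 0.51 at 20 and 40 ppm (adjusted p = 0.0124 and 0.00354). None of 14 muscle energy supply genes passed below 120 ppm with limma. From 1 to 40 ppm in order of dose, 0%, 1.16%, 11.8%, 13.2% and 12.7% of all genes passed.

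The genes most like the members were sought over all arrays by their r with the mean of the 6 measured members, each scaled to an SD of 1, after centring on dose group means. Of 17091 other genes, 10 had an r over 0.9 and 37 over 0.8, and none was under -0.8. The 20 highest, as a description over 35 arrays, began with Mb, the oxygen-binding myoglobin, at 0.98, and Tnnc1 at 0.97. Myoz2, Csrp3, Ckmt2, Fabp3, Cox7a1, Eno3, Pln and Myh7 followed, between 0.96 and 0.91. The other 10 were Ckm, Srl, Myl1, Ldb3, Actn2, Tcap, Tpm2, Cnn1, Fhl2 and Hamp, between 0.89 and 0.86. They include sarcomere proteins, muscle creatine kinases, a fatty acid binding protein and phospholamban, the regulator of the calcium pump, as well as 2 genes that smooth muscle uses, Tpm2 and Cnn1. Hamp, at 0.86, encodes the iron hormone hepcidin, which is mostly made in the liver. The 9 hepatocyte markers measured had an r from -0.33 to -0.15 with the mean of the members.

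Several of these genes were dim: Pln was above the nonspecific control on 3 of 35 arrays, Ckm on 2 and Ldb3 on 1. Mb averaged 8.17 at 10 ppm and 8.36 at 0 ppm, a difference of -0.19 (SE 0.68, adjusted p = 0.926), and -0.39 (SE 0.68, adjusted p = 0.603) at 120 ppm. Tpm2, by contrast, rose by 1.24 at 10 ppm (adjusted p = 9.1e-06), 0.98 at 20 ppm and 0.97 at 40 ppm. At the other end the lowest r over all other genes was -0.63, and leaving out provisional gene names the 5 lowest were those of Cep76, Tmem202, Cyp2b19, Car15 and Il7, from -0.59 to -0.56, of which 4 were above the control on no array. Of 15588 probe sets with no gene listed, 2 had an r over 0.9, probe sets 1420884_PM_at (0.97) and 1448826_PM_at (0.93).

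By list, muscle energy supply genes were closest, with a median r of 0.86 over 14 genes and 10 of them over 0.8. The median was 0.64 over 19 sarcomere genes, 0.70 over 10 calcium handling genes and 0.21 over 14 atrial hormone and channel genes, beside 0.01 over all other genes. Smooth muscle markers had a median of 0.71 over 9 genes. Ventricular muscle markers had a median of 0.20, skeletal muscle markers 0.06, mesothelium and thymus markers -0.09 each, and hepatocyte markers -0.22. Among the members themselves r with the mean of the other 5 ran from 0.88 to 0.98.

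**Figure D4:**
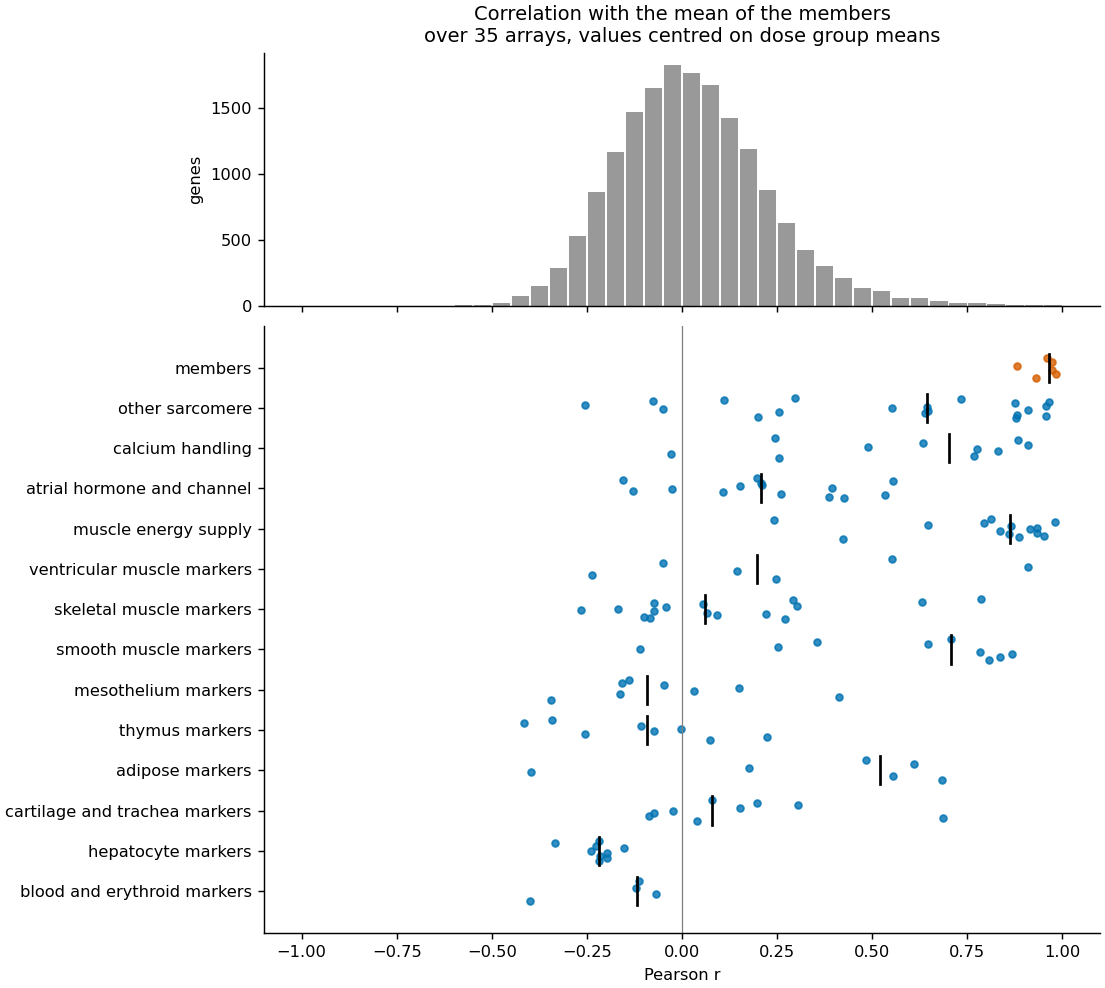
Pearson's r with the mean of the members over 35 arrays, after centring on dose group means. The upper panel counts the other genes in bins of r, and the lower panel gives 1 point per gene of each list with a black bar at the list's median; a member is set against the other 5. Most genes lie around 0, while muscle energy supply, calcium handling, sarcomere and smooth muscle lists reach toward the members.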

How the data were processed

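Total RNA of whole lungs was hybridised to 35 Affymetrix HT MG-430 PM arrays, 5 in each of 7 dose groups, by the labels. The authors deposited log2 signals per probe set, made with RMA and Partek, per the submitters' processing notes, and no source used here gives versions or settings. There are no counts behind them, so precision is limited by the number of arrays. Where nothing shows that 2 arrays came from separate mice, p-values measure the spread between arrays only.

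Of 45141 probe sets, 104 were controls, 28898 had 1 gene symbol, 551 had several and 15588 were not listed with a gene. The probe set with the highest mean stood for each of 17097 genes. limma 3.58.1 in R 4.3.3 (input read with data.table, version 1.17.8) was fitted over all arrays with 1 mean per dose group, and tests were adjusted by Benjamini-Hochberg over all genes. A change is called at an adjusted p of 0.05. Correlations, permutation tests and figures used Python 3.11.15, numpy 2.4.6, pandas 2.3.3, scipy 1.17.1 and matplotlib 3.10.9. Of 154 listed genes, 135 were matched. The members, lists and tests were chosen with earlier results of these data known. Myh6 was to be the anchor of the correlations; it has no listed probe set, so Actc1, the member with the highest mean, took its place.

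Named genes were the members; of each other cardiac list the 5 brightest and up to 4 called genes with the largest change; of each marker list the 3 brightest; and the 20 genes most and 5 least like the mean of the members, leaving out provisional names. Myl2, Myocd, Nppb, Nkx2-5, Gata4 and the 2 unlisted probe sets were named after their values were seen. On simulated data for the comparison of 10 ppm with 0 ppm over 17097 genes of median spread, 94% of genes set to 1.5-fold and 100% set to 2-fold, 3-fold and 4-fold were called, and 12 unchanged genes were. The members' spread is wider. Alternatives were other probe set rules, filters, scalings, variance models, dose scales, thresholds, blocks, covariates, and leaving out arrays. Replicate numbers are shared by the groups, but no label says that they mark a shared litter, batch or day, so they were treated as names.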

Additional observations from a re-analysis of the deposited data

How the results depend on the processing

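No alternative listed here changed the counts of 0 at 1 and 5 ppm. At 120 ppm 0 members passed with probe sets of a gene averaged, with arrays centred on their median, with repeated quantile normalisation and with values under the nonspecific control set to it, and 2 passed with only the groups compared or an adjusted p of 0.1. The F test passed for 0 members in those first 4 settings, with trended and robust variance, without 120 ppm and without the 2 arrays of 1 animal number, and for 2 at an adjusted p of 0.1. Arrays of the same replicate number correlated from -0.589 to 0.70 in their deviations (mean 0.106, against -0.0266 for different numbers), so not every pair moved together and the numbers were not taken to pair the arrays. That 17 of 35 arrays followed their own number best, out of 5 replicate numbers, is a hint from the data, not the design. With the replicate block the F test passed for 0 members. The slope to 120 ppm passed for 1 with array weights and with the nonspecific floor. With the other cardiac genes as covariate 2 passed at 10 ppm, 3 at 120 ppm, 4 in the F test and 2 for the slope to 40 ppm; with the other members it was 4, 3, 3 and 5 at 10, 20, 40 and 120 ppm, 5 and 3. Leaving out 1 array gave 0 to 2 members at 120 ppm and 0 to 6 in the F test, with 6 without 1 ppm replicate 2. The slope to 120 ppm passed for 2 to 3. The variance share of Tnnt2 was 14.5% without 120 ppm. Against Actc1, skeletal markers had r = 0.323 with centred arrays and 0.122 without centring on dose groups, cartilage and trachea markers 0.215 and blood markers -0.39 without that centring. Hepatocyte markers had 0.176 without the 1 ppm group and -0.374 to 0.119 with 1 array left out. The causes of these moves were not tested.

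Differences near 0 that had not passed changed sign. With array weights these were Actc1 at 5 ppm (-0.123), Nppa at 5 ppm (-0.196), Tnnt2 at 10 ppm (-0.00614) and 20 ppm (-0.0615), Nppa at 20 ppm (-0.0509), Myl4 at 120 ppm (-0.0925) and the Actc1 slope to 120 ppm (0.0112). Centring arrays gave 0.00822 for that slope, and the mean of probe sets gave -0.003 for Tnnt2 at 20 ppm. The other cardiac genes as covariate gave, at 1 ppm, -0.444 for Myl7, -0.585 for Myl4, -0.415 for Tnnt2 and -0.573 for Tnni3, then -0.457 for Tnnt2 at 10 ppm, -0.237 for Tnnt2 and -0.292 for Nppa at 20 ppm, and at 120 ppm -0.129 for Actc1, -0.162 for Myl4 and -0.175 for Nppa. The other members gave, at 1 ppm, -0.308 for Myl7, -0.442 for Myl4, -0.175 for Tnnt2 and -0.406 for Tnni3, then -0.104 for Tnnt2 at 10 ppm, 0.414 for Nppa at 40 ppm and 0.0139 for Tnni3 at 120 ppm. They gave slopes of 0.0499 for Actc1, 0.0596 for Myl4 and 0.0637 for Nppa to 120 ppm, and 0.0133 for Tnnt2 and 0.00214 for Nppa to 40 ppm. With 1 array left out, the ranges were -0.132 to 0.342 (Actc1, 5 ppm), -0.133 to 0.15 (Actc1, 120 ppm) and -0.00867 to 0.0512 (Actc1, slope to 40 ppm). They were also -0.631 to 0.192 (Myl4, 10 ppm), -0.222 to 0.278 (Myl4, 120 ppm), -0.411 to 0.158 (Myl7, 5 ppm), -0.636 to 0.168 (Myl7, 10 ppm), -0.35 to 0.792 (Nppa, 5 ppm) and -0.313 to 0.607 (Nppa, 20 ppm), and -0.366 to 0.465 (Nppa, 40 ppm), -0.346 to 0.743 (Nppa, 120 ppm), -0.811 to 0.156 (Tnni3, 10 ppm), -0.332 to 0.515 (Tnnt2, 10 ppm) and -0.25 to 0.22 (Tnnt2, 20 ppm).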
